A study of Mus musculus with 6 samples.

Results

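The genes described here encode the enzymes that build, branch, cap and sulfate the sugar chains of glycoproteins, glycolipids and proteoglycans. They were chosen by symbol: every gene whose symbol begins with Galnt, Gcnt, B3gnt, B3galt, B4galt, St3gal, St6gal, St8sia, Fut, Chst, Gal3st, Ndst, Hs2st, Hs3st or Hs6st, together with Ext1, Ext2, Extl1, Extl2 and Extl3, and with at least 10 counts over the 6 libraries. The rule used the symbol and the total count, not the difference between groups, but the members were chosen with earlier results of these data known. Of the 116 identifiers whose symbols matched, 81 reached the minimum, and they carry 80 different symbols among the 52636 gene identifiers of the count table. The other 35 stayed under 10 counts, and 10 of these had no count in any library. Of the 81 members, 68 were abundant enough to be tested.

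The cells were endothelial cells taken from mouse brain and grown in endothelial medium. Both groups received 4-OHT (4-hydroxytamoxifen), the agent used to induce deletion. There were 3 libraries labelled Wild Type Control and 3 labelled Erg and Fli1 double knockout, which lack, by label, a pair of ETS-family transcription factors of endothelium. Before RNA extraction, live (DAPI-negative) cells that were CD45-negative, CD31-positive and VE-cadherin-positive were sorted. The recombinase and its promoter, the strain and the age of the mice, and the time between 4-OHT and harvest are not stated by the labels. The labels do not say whether the replicates of a group came from separate animals or cultures, so p-values measure only the spread between these libraries.

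Vascular endothelium is covered by a glycocalyx of sialylated mucin-type glycoproteins and of heparan and chondroitin sulfate proteoglycans. Mucin-type O-glycans begin when a polypeptide GalNAc-transferase adds N-acetylgalactosamine to serine or threonine, and they are then extended with galactose, branched, and capped by sialic acid, fucose or sulfate. Heparan sulfate is polymerised by exostosins on a core protein, and N-, 2-O-, 6-O- and 3-O-sulfotransferases then set the pattern that binds growth factors, chemokines and antithrombin.

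Library totals lay between 17274639 and 19410458 counts. Control 2 stood apart from controls 1 and 3: the chi-square per degree of freedom over genes was 213 and 194 against these, 6.24 between them, and 9.86 to 11.3 among the knockouts. Against the knockouts it was 196 to 240 for controls 1 and 3 and 186 to 197 for control 2. Control 2 was thus about as far from the other controls as the knockouts were. Xist and Ddx3y levels marked control 1, control 3 and knockout 1 as male and control 2, knockout 2 and knockout 3 as female, so each group mixed sexes. Control 2 was the only female control, so the fit without it sets male controls against knockouts of both sexes. In that fit Xist itself was called higher (log2 difference 6.15, adjusted p = 0.048, edgeR). The part of sex in the values without control 2 was not tested. Erg fell from 496 ± 238 to 89.3 ± 19.6 CPM (counts scaled to the library total; mean ± SD, n = 3 in each group; edgeR adjusted p = 0.0137). Fli1 stood at 79.7 ± 14.3 CPM in controls and 64.1 ± 6.14 CPM in knockouts, and the groups overlapped (adjusted p = 0.181, edgeR), and at a log2 difference of -0.48 without control 2 (adjusted p = 0.00346, edgeR). The labels do not state which exons are deleted, so a count over the whole gene checks the label only in part.

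Marker sums also differed between groups. All 10 endothelial markers fell, from a summed level of 6417 to 13025 CPM in controls to 2298 to 2949 CPM in knockouts, and the lowest control value was that of control 2. Most of this sum was Pecam1 and Cdh5, the genes of the sort markers CD31 and VE-cadherin. Pecam1 went from 2927 ± 1332 to 278 ± 85.4 CPM and Cdh5 from 3985 ± 1460 to 1270 ± 153 CPM. The sum of 8 fibroblast markers was 407, 12321 and 1094 CPM in controls 1, 2 and 3 and 1645 to 2864 CPM in knockouts, with 1 of 8 called higher and none lower, and 4 higher and 1 lower without control 2. The sum of 9 mural markers was 453, 3954 and 557 CPM in controls 1, 2 and 3 and 716 to 1490 CPM in knockouts, with 1 of 9 called lower, and 2 higher and 1 lower without control 2. Dcn made up most of the fibroblast sum in knockouts, at 1421, 2110 and 1343 CPM, against 3.95, 317 and 6.96 CPM in controls. The fibroblast marker called lower without control 2 was Col1a1. Acta2 made up most of the mural sum, at 379, 3049 and 462 CPM in controls and 652, 1131 and 522 CPM in knockouts. Leukocyte and microglial markers summed to at most 4.17 CPM in any library. Of the markers of other cell types, Ttr had no count, and Itgam, Sox10, Olig2 and Epcam averaged 0.0086, 0.0093, 0.018 and 0.027 CPM. Others on these lists moved: Mbp was higher in knockouts (0.198 ± 0.029 to 2.41 ± 1.40 CPM, edgeR adjusted p = 0.00803), as was Krt18 (2.26 ± 1.23 to 7.78 ± 1.5 CPM, edgeR adjusted p = 0.044). Tubb3 read 13.8, 64.1 and 20.9 CPM in controls and 62.4, 76.5 and 52.2 CPM in knockouts, and was called higher without control 2 (adjusted p = 4.68e-04, edgeR; 0.279 with 6 libraries). In bulk RNA, fewer cells of a type and less RNA per cell cannot be told apart, and the part of these marker shifts in the results below was not tested. Because control 2 stands apart, the counts of calls and the log2 differences of the genes below are given with all 6 libraries and again without control 2.

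**Figure D1:**
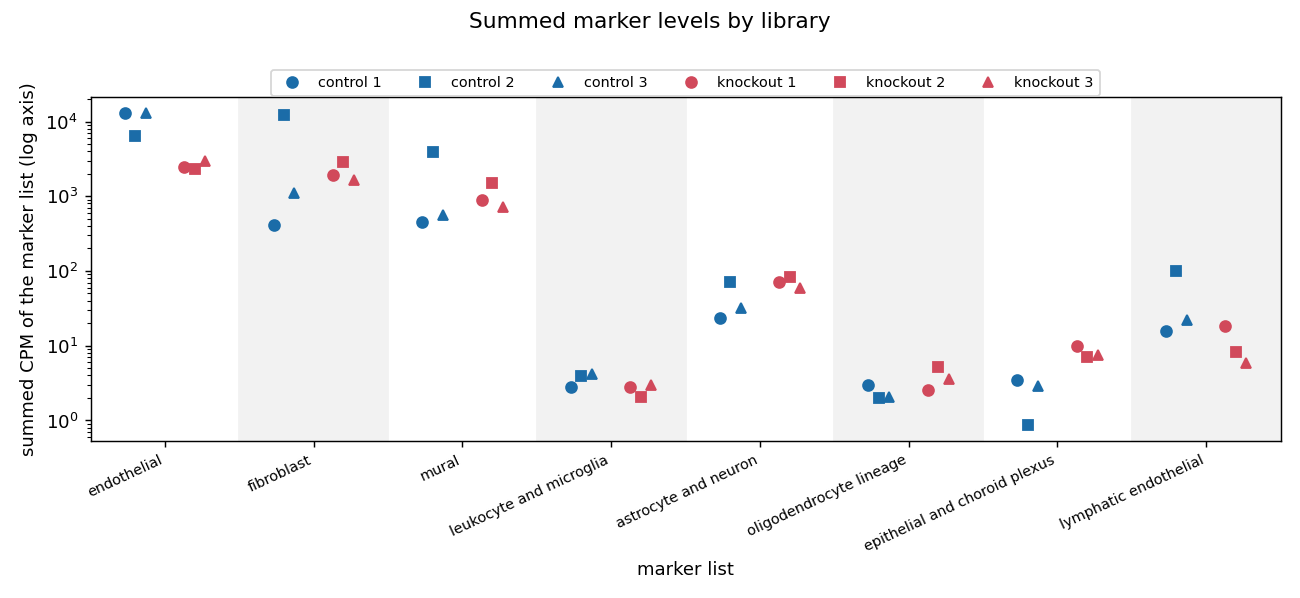
Summed CPM of each marker list (log axis) in the 3 control (blue) and 3 knockout (red) libraries, 1 symbol per library. Control 2 (blue square) carries 12321 CPM of fibroblast markers against 407 and 1094 CPM in the other controls, and the endothelial sum is lower in all 3 knockouts than in any control.

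The comparison of knockout with control asks how the transcripts of these enzymes differ when both ETS factors are deleted. Of the 68 tested members, 16 rose, 16 fell and 36 were not called at an adjusted p under 0.05 (edgeR quasi-likelihood test, Benjamini-Hochberg over 13901 genes). That is 47.1% of the members, where 24.7% of all tested genes were called, 13.1% higher and 11.7% lower. Without control 2, 29 members rose and 20 fell (72.1%), where 50.3% of all tested genes were called, 25.5% higher and 24.8% lower. The shares of all tested genes given here are the background for every count of calls by group below. All 32 calls were kept in the same direction without control 2. In 45 of the 68 tested members (66.2%) no control library overlapped a knockout library, against 46.3% of all tested genes. Both directions were equally frequent, and the median log2 difference of the members was -0.09, against 0.0030 for all tested genes. Leaving out any single library other than control 2 lowered the counts: higher and lower calls numbered 11 and 7 without control 1, 9 and 8 without control 3, 9 and 6 without knockout 1, 9 and 4 without knockout 2, and 10 and 5 without knockout 3.

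**Figure D2:**
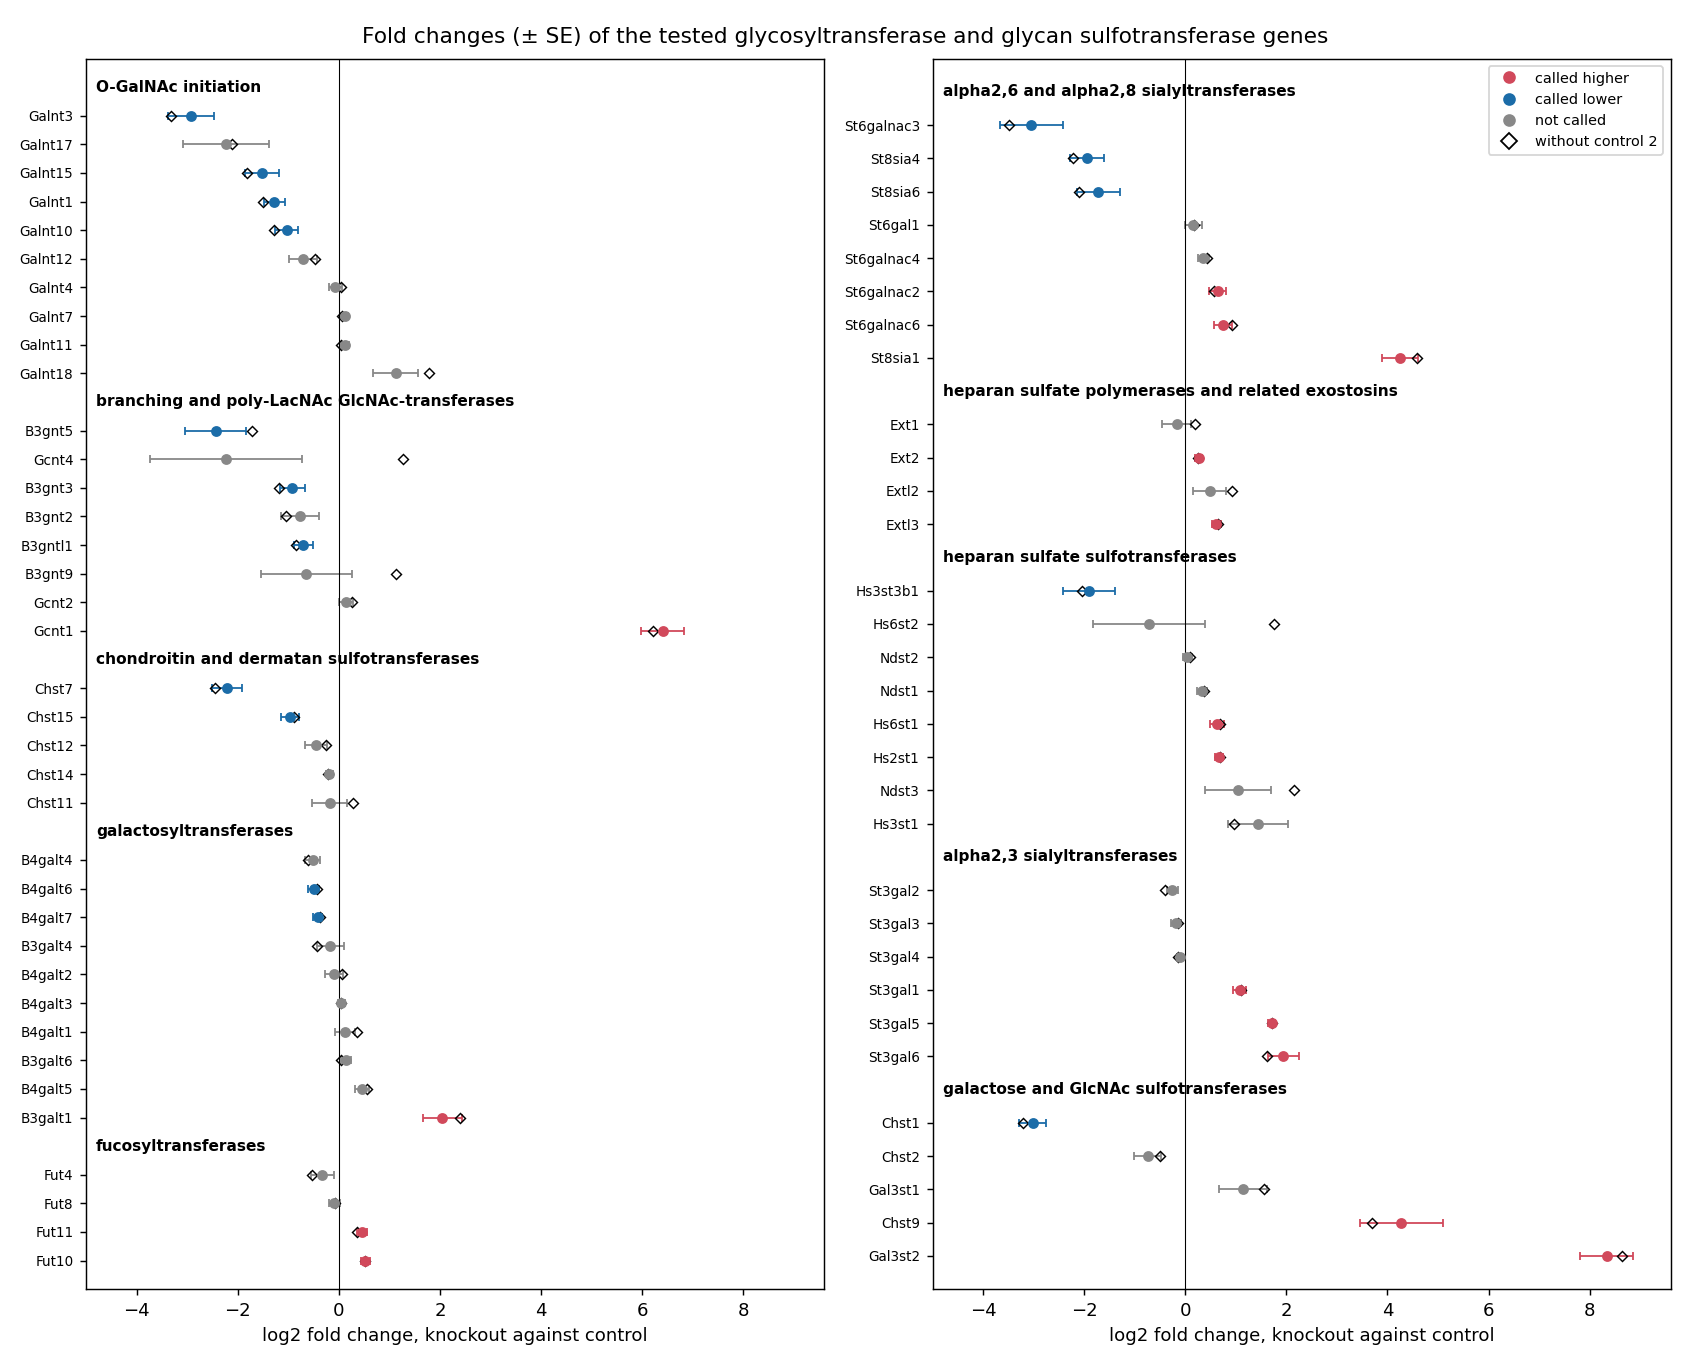
Log2 difference of knockout minus control for the 68 tested members, grouped by role, with bars for the standard error; filled circles are the 6-library values, coloured by call, and open diamonds the values without control 2. Called genes lie on both sides of 0, and the diamonds of Gcnt4, B3gnt9, Hs6st2, Chst11 and Ext1, and closer to 0 those of Galnt4 and B4galt2, lie across 0 from their circles.

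Several members differed by more than 2 on the log2 scale. Gcnt1, Gal3st2 and St8sia1 were near the detection floor in every control and present in every knockout, whereas Chst1, Chst7 and Galnt3 were expressed in controls and several-fold lower in every knockout. The promoters of 4 of these genes, and of St3gal5, are shown because the deleted factors bind DNA at sites with a GGAA core. Each is the reference sequence just before the RefSeq transcript start (GRCm38.p6, 5′ to 3′ on the gene's strand, trimmed to the bases before the first annotated exon), and capitals mark GGAA or its complement TTCC. Chst1 lies at chr2:92600867-92601116 (plus strand), Chst7 at chrX:20059320-20059559 (plus), Gcnt1 at chr19:17372845-17373094 (minus, the outermost of 3 annotated starts), St3gal5 at chr6:72097358-72097591 (plus) and St8sia1 at chr6:142964453-142964702 (minus).
Chst1: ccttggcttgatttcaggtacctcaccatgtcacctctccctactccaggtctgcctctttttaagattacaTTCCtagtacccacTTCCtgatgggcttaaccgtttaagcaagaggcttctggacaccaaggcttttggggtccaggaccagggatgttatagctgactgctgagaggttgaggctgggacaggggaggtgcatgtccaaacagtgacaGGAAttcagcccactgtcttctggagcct
Chst7: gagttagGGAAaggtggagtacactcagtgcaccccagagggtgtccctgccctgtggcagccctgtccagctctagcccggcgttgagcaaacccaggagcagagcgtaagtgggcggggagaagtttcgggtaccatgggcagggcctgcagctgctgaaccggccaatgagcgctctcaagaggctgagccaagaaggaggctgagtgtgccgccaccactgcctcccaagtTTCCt
Gcnt1: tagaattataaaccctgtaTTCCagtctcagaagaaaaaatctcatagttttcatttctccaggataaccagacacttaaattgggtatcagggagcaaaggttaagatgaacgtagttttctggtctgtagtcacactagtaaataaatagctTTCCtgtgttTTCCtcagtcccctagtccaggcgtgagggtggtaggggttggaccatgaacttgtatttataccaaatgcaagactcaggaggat
St3gal5: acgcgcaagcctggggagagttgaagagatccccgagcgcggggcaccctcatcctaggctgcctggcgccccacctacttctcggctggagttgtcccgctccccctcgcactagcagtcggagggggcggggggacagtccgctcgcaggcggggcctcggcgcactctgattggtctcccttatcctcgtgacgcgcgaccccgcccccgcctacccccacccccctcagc
St8sia1: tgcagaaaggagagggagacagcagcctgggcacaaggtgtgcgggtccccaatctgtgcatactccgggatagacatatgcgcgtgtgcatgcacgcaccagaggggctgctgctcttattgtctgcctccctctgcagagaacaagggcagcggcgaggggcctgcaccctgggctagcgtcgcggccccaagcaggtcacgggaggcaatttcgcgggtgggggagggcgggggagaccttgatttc

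The Chst1 stretch, which lies in an intron of the longer annotated gene, holds 3 GGAA cores and 1 match to the fuller motif CNGGAAG, the Gcnt1 stretch 3 cores, the Chst7 stretch 2, and those of St3gal5 and St8sia1 none. RefSeq windows of 250 bases before to 50 after a start were found for 63 of the 80 member symbols, in 84 windows. Only the 250 bases before each start were searched, on both strands. GGAA was present in 92.9% of the member windows and in 93.4% of all 32851 windows of the table. CNGGAAG, which contains GGAA, was present in 25% of member windows and 26.6% of all windows, and in 26.7% of the windows of members that rose as of those that fell. A match describes the letters only.

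Among the 10 tested polypeptide GalNAc-transferases, which start mucin-type O-glycans, 4 fell, none rose and 6 were not called (median log2 difference -0.87). Without control 2, 1 rose and 4 fell. The shares of all tested genes called in either direction were 24.7% and, without control 2, 50.3%. Galnt1, a widely expressed family member, had the highest level per length of any tested member in controls, 76.7 CPM per kb of exon. It read 437, 307 and 526 CPM in controls 1, 2 and 3 and 173, 170 and 184 CPM in knockouts 1, 2 and 3. All knockouts lay below all controls, a 2.42-fold lower mean (log2 difference -1.27 ± 0.20 SE, edgeR adjusted p = 0.00931; -1.49 without control 2). Leaving out knockout 2 lost this call (adjusted p = 0.0533, edgeR) with little change in size (log2 difference -1.24).

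Galnt3, known for glycosylating the phosphate hormone FGF23, read 14.5, 5.01 and 13.7 CPM in controls and 1.18, 1.62 and 1.56 CPM in knockouts. The groups did not overlap, and control 2 was the lowest control (log2 difference -2.92 ± 0.46 SE, edgeR adjusted p = 0.00922; -3.31 without control 2). Galnt15 read 49.1, 24.0 and 50.1 CPM in controls and 12.8, 11.8 and 18.4 CPM in knockouts (log2 difference -1.52 ± 0.34 SE, edgeR adjusted p = 0.0259; -1.82 without control 2). Its call was lost when any library other than control 2 was left out, with adjusted p up to 0.105 (edgeR). Galnt10, picked out after its values were seen, fell from 113 ± 33.3 to 55.3 ± 4.90 CPM (log2 difference -1.03, edgeR adjusted p = 0.0265; -1.28 without control 2).

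Galnt18, also picked out after its values were seen, went the other way. It read 47.4, 154 and 60.9 CPM in controls and 202, 174 and 195 CPM in knockouts. No libraries overlapped, but control 2 lay close to the knockouts, and the difference was called only without it (log2 difference 1.12, adjusted p = 0.125 with 6 libraries; 1.78, adjusted p = 3.85e-05 without control 2; edgeR). Per kb of exon Galnt18 had the highest mean level of the tested members in knockouts, 73.9 CPM per kb, above Galnt1 at 31.8, whereas in controls the order was reversed at 33.9 and 76.7. Galnt4, Galnt7 and Galnt11 stayed between 24.9 and 43.7 CPM in all libraries and were not called in either fit. The summed level of the group was 678 to 895 CPM in controls and 517 to 557 CPM in knockouts.

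Galnt2 could not be assessed: it held 5 counts in all 6 libraries, and 90% of its annotated exon bases (GENCODE M21) are also covered on the same strand by Gm20388, which has no count. A read in such a stretch may be assigned to neither gene, depending on the counting program, which is not given in the sources used here.

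Among the 8 tested GlcNAc-transferases that branch or extend chains, 1 rose, 3 fell and 4 were not called (median log2 difference -0.74), and without control 2, 3 rose and 4 fell. Gcnt1 forms the core 2 branch of O-glycans, the scaffold on which leukocyte selectin ligands are built. It read 0.843, 0.708 and 1.26 CPM in controls and 73.1, 115 and 52.0 CPM in knockouts. Every knockout lay far above every control, and control 2 did not stand apart (log2 difference 6.41 ± 0.43 SE, edgeR adjusted p = 0.00123; 6.21 ± 0.49 without control 2). Among the knockouts the level ranged from 52.0 to 115 CPM. Per kb of exon the mean level went from 0.163 to 13.9 CPM, below B3gnt3 in the same cells.

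B3gnt3, which extends core 1 O-glycans and takes part in making L-selectin ligands in high endothelial venules, was the most abundant of the group. It read 171, 96.8 and 186 CPM in controls and 77.7, 75.6 and 86.0 CPM in knockouts. The groups did not overlap, but the call stood near the threshold (log2 difference -0.92 ± 0.25 SE, edgeR adjusted p = 0.0443; -1.19, adjusted p = 2.34e-05 without control 2). It was lost on leaving out any library other than control 2, with adjusted p up to 0.149 (edgeR). B3gnt5, which makes the precursor of lacto-series glycolipids, was low throughout, at 1.84, 5.23 and 1.59 CPM in controls and 0.308, 0.614 and 0.668 CPM in knockouts (log2 difference -2.44 ± 0.60 SE, edgeR adjusted p = 0.0355; -1.73 without control 2). That call too was lost without control 1 or any knockout, with adjusted p up to 0.12 (edgeR).

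Gcnt4 and B3gnt9, picked out after their values were seen, were set by control 2. Gcnt4 read 0.580, 30.1 and 1.26 CPM in controls against 2.16, 3.63 and 1.00 CPM in knockouts. B3gnt9 read 2.00, 19.2 and 2.52 CPM in controls against 5.65, 5.36 and 4.18 CPM in knockouts, and it was called higher without control 2 (log2 difference 1.13, adjusted p = 0.00436, edgeR). For both, the 6-library difference had the opposite sign (-2.23 and -0.64) and was not called. B3gnt2 shares 65.5% of its exon bases with other genes on the same strand, so its level of about 1 CPM or less in each library is uncertain.

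**Figure D3:**
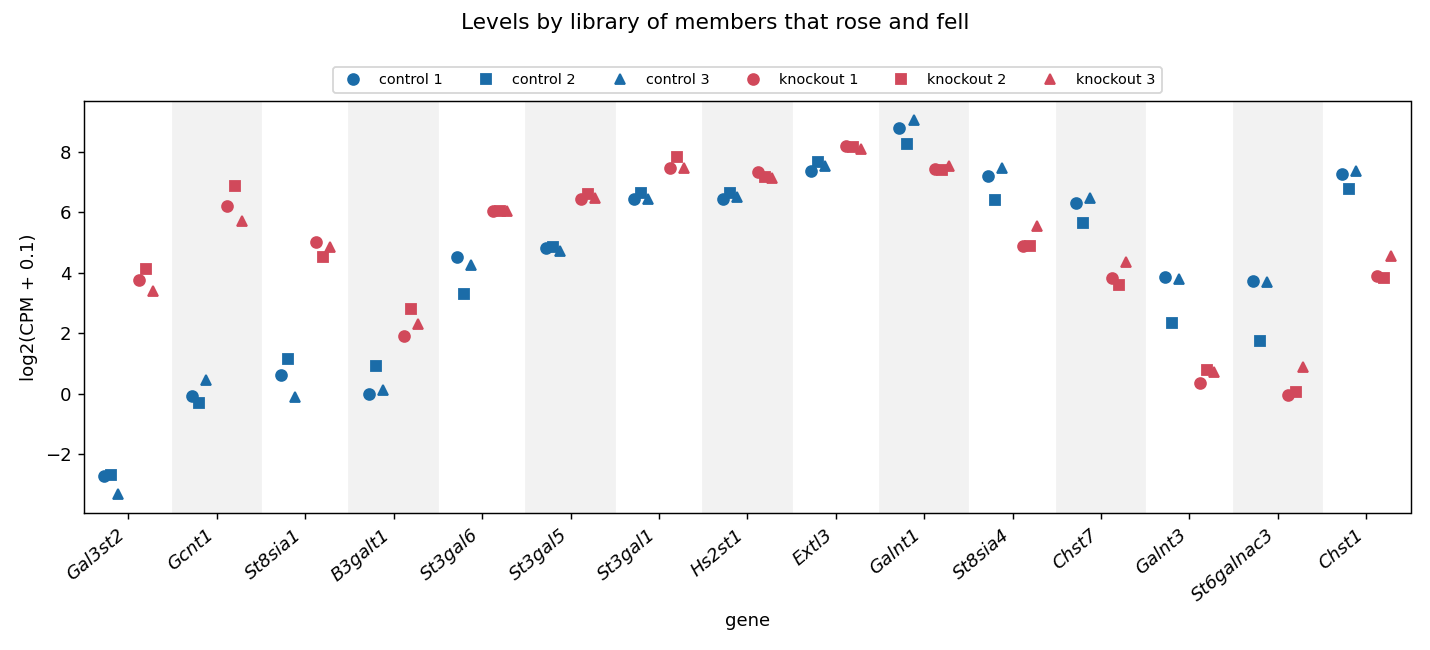
Level of 15 named members in each library as log2(CPM + 0.1), controls in blue and knockouts in red, 1 symbol per library. From Gal3st2 to Extl3 every knockout lies above every control, and from Galnt1 to Chst1 every knockout lies below every control.

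Of the 10 tested galactosyltransferases 1 rose, 2 fell and 7 were not called (median log2 difference -0.02), and without control 2, 3 rose and 3 fell. B4galt1, the main enzyme adding galactose to N-glycan antennae, read 115, 189 and 119 CPM in controls and 149, 162 and 150 CPM in knockouts. Control 2 was above every knockout and the other controls below, so the difference was 0.12 (adjusted p = 0.689) with 6 libraries and 0.36 (adjusted p = 0.00152) without control 2 (edgeR). B3galt1, which builds type 1 chains, was low and rose, from 0.896, 1.80 and 0.986 CPM to 3.65, 6.81 and 4.85 CPM (log2 difference 2.05 ± 0.38 SE, edgeR adjusted p = 0.0153; 2.39 without control 2). Leaving out control 1, control 3, knockout 2 or knockout 3 lost this call, with adjusted p up to 0.0609 (edgeR).

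B4galt6, a lactosylceramide synthase, read 48.5, 61.6 and 53.5 CPM in controls and 40.9, 37.4 and 37.8 CPM in knockouts (log2 difference -0.50 ± 0.11 SE, edgeR adjusted p = 0.023; -0.43 without control 2). B4galt7, which adds the first galactose of the glycosaminoglycan linker, read 35.8, 40.2 and 32.9 CPM in controls and 26.5, 28.0 and 27.1 CPM in knockouts (log2 difference -0.42 ± 0.09 SE, edgeR adjusted p = 0.0256; -0.37 without control 2). Both were lower in every knockout by less than 1.5-fold. Either call was lost in 4 of the 6 fits with 1 library left out, B4galt6 without control 3 or any knockout and B4galt7 without control 1 or any knockout (adjusted p up to 0.0956 and 0.0998, edgeR). B4galt5, the other lactosylceramide synthase and picked out after its values were seen, read 98.5 ± 17.3 CPM in controls and 135 ± 3.45 CPM in knockouts (log2 difference 0.46, adjusted p = 0.0525; 0.56, adjusted p = 8.82e-04 without control 2; edgeR).

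The 6 tested alpha2,3-sialyltransferases, which cap galactose with sialic acid, held 3 genes that rose and 3 not called (median log2 difference 0.49). Without control 2, 3 rose and 1 fell. Their summed level went from 374 to 413 CPM in controls to 553 to 610 CPM in knockouts. St3gal5, the synthase of the ganglioside GM3, read 27.8, 28.6 and 26.4 CPM in controls and 86.8, 96.2 and 88.4 CPM in knockouts. Replicates were tight in both groups and control 2 matched the others, giving a 3.28-fold higher mean (log2 difference 1.71 ± 0.07 SE, edgeR adjusted p = 4.23e-04, the same 1.71 without control 2). St3gal1, which caps core 1 O-glycans, read 86.9, 99.5 and 86.3 CPM in controls and 174, 226 and 175 CPM in knockouts (log2 difference 1.08 ± 0.13 SE, edgeR adjusted p = 0.00447; 1.11 without control 2). For both genes the call held when any library was left out.

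St3gal6, an enzyme of sialyl Lewis x synthesis, read 22.9, 9.75 and 18.8 CPM in controls and 66.1, 65.8 and 65.2 CPM in knockouts. The knockouts were nearly equal and control 2 was the lowest control (log2 difference 1.94 ± 0.31 SE, edgeR adjusted p = 0.00964; 1.62 without control 2). On the opposite strand 26.0% of its exon bases overlap Dcbld2, and the strand setting of the counting is not given in the sources used here, so its level is uncertain. St3gal2, the most abundant of the group, was 172 ± 23.6 CPM in controls and 144 ± 3.59 CPM in knockouts, and the groups overlapped (log2 difference -0.26, adjusted p = 0.145; -0.40, adjusted p = 7.46e-04 without control 2; edgeR). St3gal3 and St3gal4 were not called in either fit.

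The 8 tested alpha2,6- and alpha2,8-sialyltransferases moved in both directions, with 3 higher, 3 lower and 2 not called (median log2 difference 0.26), and 4 higher and 3 lower without control 2. St8sia1, which adds a further sialic acid to GM3 to form the ganglioside GD3, read 1.42, 2.12 and 0.822 CPM in controls and 32.0, 22.9 and 28.9 CPM in knockouts. Every knockout lay far above the highest control (log2 difference 4.25 ± 0.36 SE, edgeR adjusted p = 0.00203; 4.59 without control 2). St8sia1 and St3gal5 act in succession on glycolipids, and the transcripts of both were higher in every knockout. B4galt5 and B4galt6, upstream of them, differed by less than 1.5-fold in opposite directions as given above.

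St8sia4, a polysialyltransferase known for modifying NCAM, read 146, 83.5 and 175 CPM in controls and 29.3, 29.5 and 46.6 CPM in knockouts. All knockouts lay below all controls (log2 difference -1.94 ± 0.33 SE, edgeR adjusted p = 0.0121; -2.23 without control 2), and the call was lost without knockout 1 or knockout 2 (adjusted p up to 0.0633, edgeR). St6galnac3, which adds alpha2,6-linked sialic acid to GalNAc, read 13.2, 3.27 and 12.9 CPM in controls and 0.874, 0.948 and 1.73 CPM in knockouts (log2 difference -3.04 ± 0.63 SE, edgeR adjusted p = 0.0207; -3.50 without control 2). Leaving out any library other than control 2 lost that call (adjusted p up to 0.0938, edgeR). St8sia6, picked out after its values were seen, read 151, 57.7 and 168 CPM in controls and 39.7, 29.2 and 45.0 CPM in knockouts (log2 difference -1.72, edgeR adjusted p = 0.0346; -2.10 without control 2).

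In these 3 falling genes, as in Galnt1, Galnt3, Galnt10, Galnt15, B3gnt3, Chst1 and Chst7, control 2 lay between the other controls and the knockouts. The same held for B3gntl1, called lower and picked out after its values were seen. The remaining members called lower differed. Control 2 was the highest control for B3gnt5, Chst15, B4galt6 and B4galt7, and lay between controls 1 and 3 for Hs3st3b1. The endothelial marker sum had the order of the first set, and a link between them was not tested. Among the 57 tested members averaging 5 CPM or more, 6 were more than 2-fold higher and 6 more than 2-fold lower in control 2 than in the mean of controls 1 and 3. The summed level of this sialyltransferase group was 422, 278 and 463 CPM in controls and 242 to 269 CPM in knockouts. St6gal1, which adds the alpha2,6-linked sialic acid of N-glycans and was also picked out after its values were seen, stayed between 45.9 and 71.0 CPM and was not called (adjusted p = 0.538, edgeR).

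**Figure D4:**
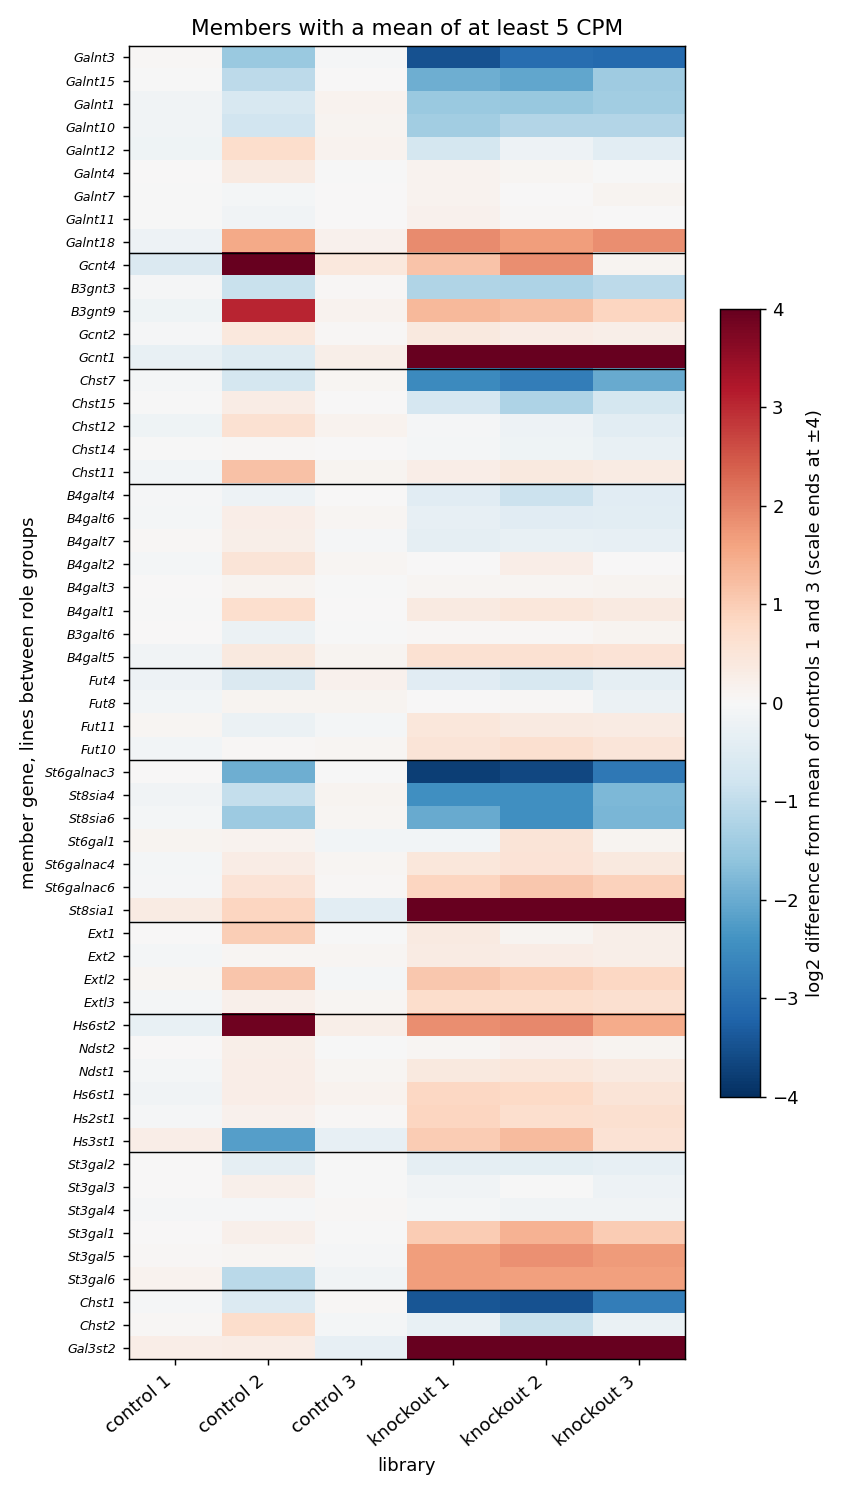
Log2 difference of each library from the mean of controls 1 and 3, for members averaging 5 CPM or more; rows are genes in role groups parted by lines, and the colour scale ends at 4 in either direction. Control 2 is pale blue in most rows where the knockouts are dark blue, and dark red for Gcnt4, B3gnt9 and Hs6st2.

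The 4 tested fucosyltransferases differed little: 2 rose, none fell and 2 were not called (median log2 difference 0.18). Without control 2, 2 rose and 1 fell. Fut2, too low for this test, was called lower with a lower count minimum, as given below. Fut11 read 36.4, 29.5 and 32.8 CPM in controls and 47.6, 44.0 and 43.9 CPM in knockouts (log2 difference 0.46 ± 0.10 SE, edgeR adjusted p = 0.0225; 0.35 without control 2). Fut10 read 13.9, 15.5 and 15.8 CPM in controls and 21.3, 23.2 and 20.7 CPM in knockouts (log2 difference 0.53 ± 0.09 SE, edgeR adjusted p = 0.0126; 0.51 without control 2). Both were higher in every knockout by less than 1.5-fold. Fut10 lost its call without knockout 1 or knockout 2 and Fut11 without control 3 or any knockout (adjusted p up to 0.0586 and 0.104, edgeR). Fut8, the core fucosyltransferase of N-glycans, did not pass the test in either fit, and Fut7, which completes sialyl Lewis x in leukocytes, held 9 counts in all libraries and was under the minimum.

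Among the tested genes of heparan sulfate polymerisation and sulfation, more were called higher than lower. Of 4 tested exostosins 2 rose and none fell (median log2 difference 0.37), and of 8 tested heparan sulfate sulfotransferases 2 rose, 1 fell and 5 were not called (median 0.48). Without control 2 these were 3 and 0 of the exostosins and 6 and 1 of the sulfotransferases. The shares of all tested genes called higher were 13.1% and, without control 2, 25.5%, and those called lower 11.7% and 24.8%. Of the higher calls with 6 libraries, those of Ext2 and Hs6st1 were lost in 5 and 4 fits with 1 library left out.

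Extl3, which adds the first GlcNAc that commits a chain to heparan sulfate, read 165, 201 and 186 CPM in controls and 288, 283 and 272 CPM in knockouts. All knockouts lay above all controls (log2 difference 0.61 ± 0.09 SE, edgeR adjusted p = 0.00755; 0.65 without control 2), and the call held when any library was left out. Ext2, a subunit of the copolymerase, read 152, 167 and 167 CPM in controls and 200, 197 and 186 CPM in knockouts (log2 difference 0.26 ± 0.07 SE, edgeR adjusted p = 0.0363; 0.25 without control 2). This small rise was not called when any library other than control 2 was left out (adjusted p up to 0.127, edgeR). Its partner Ext1 read 199, 390 and 198 CPM in controls and 252, 215 and 232 CPM in knockouts, so that its sign turned on control 2 and neither fit called it (log2 difference -0.17, adjusted p = 0.7; 0.20, adjusted p = 0.0635 without control 2; edgeR).

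Hs2st1, the single 2-O-sulfotransferase of heparan sulfate, read 86.2, 99.0 and 91.0 CPM in controls and 160, 142 and 138 CPM in knockouts. Every knockout exceeded every control, a 1.59-fold higher mean (log2 difference 0.67 ± 0.08 SE, edgeR adjusted p = 0.00533; 0.69 without control 2), and no left-out library ended the call. Hs6st1, a 6-O-sulfotransferase, read 23.2, 31.1 and 28.2 CPM in controls and 45.8, 45.0 and 36.9 CPM in knockouts (log2 difference 0.63 ± 0.14 SE, edgeR adjusted p = 0.0277; 0.69 without control 2). It lost the call without control 1, control 3, knockout 1 or knockout 2 (adjusted p up to 0.102, edgeR). Ndst1, the main N-deacetylase and N-sulfotransferase and the most abundant of the group, was 214 ± 24.8 CPM in controls and 268 ± 8.39 CPM in knockouts without overlap (log2 difference 0.32, adjusted p = 0.0618; 0.38, adjusted p = 0.0022 without control 2; edgeR).

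The 3-O-sulfotransferases split. Hs3st3b1 was low and fell, from 2.32, 2.50 and 4.06 CPM to 1.39, 0.502 and 0.446 CPM (log2 difference -1.91 ± 0.51 SE, edgeR adjusted p = 0.0444; -2.04 without control 2). That call was lost without control 1, control 3, knockout 2 or knockout 3 (adjusted p up to 0.149, edgeR), and 8.56% of its 50-base stretches also occur in other genes. Hs3st1, which makes the antithrombin-binding site of heparan sulfate and was picked out after its values were seen, read 13.3, 2.34 and 8.88 CPM in controls and 22.7, 26.9 and 16.7 CPM in knockouts. It was higher in every knockout but called only without control 2 (log2 difference 1.43, adjusted p = 0.134; 0.96, adjusted p = 0.0159 without control 2; edgeR).

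Hs6st2, another 6-O-sulfotransferase picked out in the same way, read 6.43, 118 and 9.37 CPM in controls and 28.9, 30.5 and 22.4 CPM in knockouts. With 6 libraries the difference was -0.71 (adjusted p = 0.673) and without control 2 it was 1.75 (adjusted p = 4.23e-04, edgeR). The knockouts lay between control 2 and the other controls. Hs6st2 is on the X chromosome and control 2 was the only female control, and the part of sex was not tested.

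**Figure D5:**
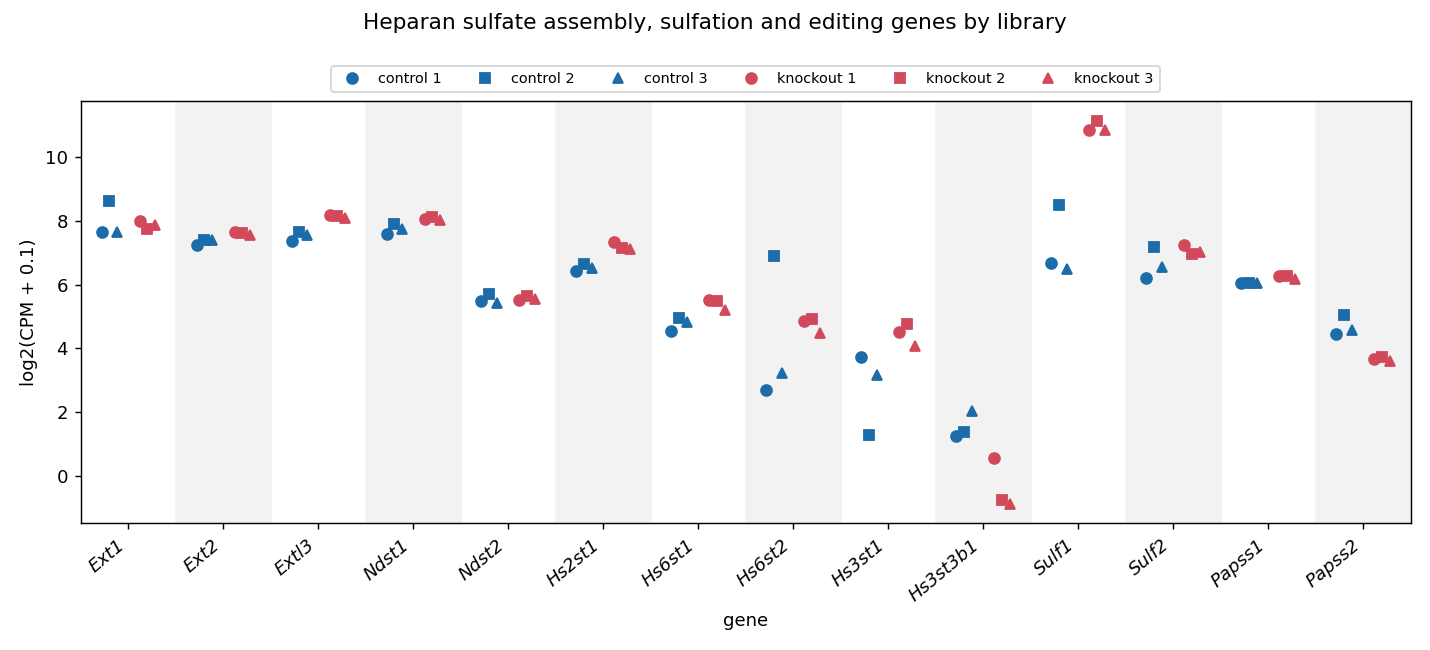
Level of heparan sulfate assembly, sulfation, editing and sulfate-donor genes in each library as log2(CPM + 0.1), controls in blue and knockouts in red. Extl3, Hs2st1 and Sulf1 are higher in all 3 knockouts, Papss2 and Hs3st3b1 are lower, and control 2 lies far from the other controls for Hs6st2 and Hs3st1.

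Other genes of the heparan sulfate pathway were taken from lists of linker, editing and sulfate-donor genes and of proteoglycan cores. Of 13 tested linker, editing and donor genes 1 rose and 2 fell, and of 12 tested cores 2 rose and 1 fell. Without control 2 these were 4 and 3 of the first list and 6 and 2 of the cores. Across all tested genes 24.7% were called, and 50.3% without control 2, so the counts with 6 libraries lay near that share. Sulf1, an extracellular endosulfatase that removes 6-O-sulfate from heparan sulfate, read 102, 359 and 90.3 CPM in controls and 1850, 2249 and 1842 CPM in knockouts. It was higher in every knockout, with control 2 the highest control (log2 difference 3.43 ± 0.62 SE, edgeR adjusted p = 0.0138; 4.33 without control 2). Papss2, a synthase of the sulfate donor PAPS, fell from 26.4 ± 6.07 to 12.7 ± 0.652 CPM (log2 difference -1.05, edgeR adjusted p = 0.0108; -0.89 without control 2). Among cores, Sdc4 (syndecan-4) rose from 166 ± 72.1 to 567 ± 57.2 CPM and Agrn (agrin) from 165 ± 32.8 to 342 ± 41.4 CPM (edgeR adjusted p = 0.0127 and 0.0105; log2 differences 1.77 and 1.05, and 2.15 and 1.17 without control 2). The core that fell was Col18a1, picked out after its values were seen, from 2074 ± 200 to 1047 ± 139 CPM (edgeR adjusted p = 0.00744). Its log2 difference was -0.99, and -1.07 without control 2. The summed level of the cores, most of it Hspg2 and Col18a1, was 5486 to 6470 CPM in controls and 4066 to 4705 CPM in knockouts.

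The 5 tested sulfotransferases of galactose, GlcNAc or terminal GalNAc held the steepest rise of the tested members and a deep fall (2 higher, 1 lower, 2 not called, median log2 difference 1.14; 3 higher and 1 lower without control 2). Chst1, which sulfates the 6-position of galactose in keratan sulfate and sialyl-lactosamine chains, read 153, 108 and 164 CPM in controls and 14.7, 14.1 and 23.4 CPM in knockouts. No libraries overlapped, the mean was 8.12-fold lower, and no left-out library ended the call (log2 difference -3.02 ± 0.27 SE, edgeR adjusted p = 0.00235; -3.22 without control 2). Per kb of exon its level went from 52.8 CPM, second to Galnt1 among tested members in controls, to 6.5 CPM. The summed level of the group, most of it Chst1 in controls, went from 192 to 212 CPM in controls to 61.6 to 77.7 CPM in knockouts.

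Gal3st2, a galactose 3-O-sulfotransferase, had 1, 1 and 0 counts in controls 1, 2 and 3 and 762 counts over the 3 knockouts, at 13.6, 17.5 and 10.3 CPM. The depth-scaled ratio was 383, with a 95% counting interval from 106 to 3166, and 513 (91.7 to 20273) without control 2 (edgeR adjusted p = 0.00102 and 3.22e-05). The interval covers counting error only, and PCR copies without molecular identifiers are not independent molecules. Of the 50-base stretches in its exons 71.2% also occur in other genes, so which copy the reads came from is uncertain. Chst9, picked out after its values were seen, read 0.158, 0 and 0.11 CPM in controls and 2.88, 0.837 and 1.84 CPM in knockouts (edgeR adjusted p = 0.0171, and 0.00541 without control 2). Chst2, which sulfates GlcNAc in L-selectin ligands, was not called (log2 difference -0.74, adjusted p = 0.1; -0.49, adjusted p = 0.0598 without control 2; edgeR).

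Of 5 tested chondroitin and dermatan sulfotransferases none rose, 2 fell and 3 were not called (median log2 difference -0.45). Without control 2, 1 rose and 2 fell. Chst7, a chondroitin 6-O-sulfotransferase on the X chromosome, read 78.4, 50.3 and 87.3 CPM in controls and 14.1, 12 and 20.5 CPM in knockouts. The groups did not overlap and the call held without any 1 library (log2 difference -2.21 ± 0.29 SE, edgeR adjusted p = 0.00607; -2.45 without control 2). Chst15, which makes the disulfated chondroitin sulfate E unit, read 49.0, 61.3 and 50.7 CPM in controls and 31.4, 21.3 and 30.3 CPM in knockouts (log2 difference -0.96 ± 0.18 SE, edgeR adjusted p = 0.0155; -0.88 without control 2). It lost the call without knockout 3 (adjusted p = 0.0513, edgeR, log2 difference -1.02), and 17.9% of its exon bases overlap an opposite-strand gene.

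Chst11, a chondroitin 4-O-sulfotransferase and the most abundant of these, read 70.9, 173 and 82.5 CPM in controls and 92.0, 101 and 95.3 CPM in knockouts. Its direction turned on control 2: -0.18 with 6 libraries (adjusted p = 0.732) and 0.29 without it (adjusted p = 0.0147, edgeR). Of 8 tested genes of chondroitin chain synthesis 1 fell and none rose, where 24.7% of all tested genes were called. Without control 2, 4 rose and 1 fell, where 50.3% of all tested genes were called. The 1 that fell was Csgalnact1, which adds the first GalNAc of a chondroitin chain, at 98.5, 101 and 99.7 CPM in controls and 11.7, 9.15 and 12.9 CPM in knockouts. All 3 controls agreed closely, control 2 included (log2 difference -3.15 ± 0.14 SE, edgeR adjusted p = 4.35e-04; -3.17 without control 2).

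Further lists covered carriers, other transferases and sugar supply. For these lists and the N-glycan genes below, the shares of all tested genes called were again 24.7% with 6 libraries and 50.3% without control 2. Of 7 tested selectins and mucin-type carriers 1 fell and none rose, and without control 2, 2 rose and 3 fell. Emcn (endomucin), an endothelial sialomucin, read 1459, 386 and 1489 CPM in controls and 255, 241 and 344 CPM in knockouts (log2 difference -1.99 ± 0.53 SE, edgeR adjusted p = 0.0428; -2.43 without control 2). Selp (P-selectin), picked out after its values were seen like Sele (E-selectin), read 10.7, 216 and 12.6 CPM in controls and 86.9, 135 and 147 CPM in knockouts, with control 2 above every knockout (log2 difference 0.62, adjusted p = 0.732; 3.37, adjusted p = 6.5e-05 without control 2; edgeR). Sele read 6.11, 52.2 and 7.12 CPM in controls and 11.4, 16 and 18.2 CPM in knockouts, and its difference of -0.52 (adjusted p = 0.696) became 1.16 (adjusted p = 0.00375) without control 2 (edgeR). Selplg, the carrier of the P-selectin ligand on leukocytes, and Glycam1 had no count. Of 8 tested transferases outside the symbol rule 1 rose, B3galnt2 of alpha-dystroglycan glycosylation, from 20.6 ± 0.403 to 26.8 ± 2.19 CPM (log2 difference 0.38, edgeR adjusted p = 0.0262; 0.35 without control 2). Without control 2, 5 of these rose and 1 fell.

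Of 10 tested genes of N-glycan processing and branching 3 fell and none rose, and without control 2, 3 rose and 3 fell. Mgat5, which makes the beta1,6 branch, fell from 131 ± 32.9 to 72.6 ± 2.43 CPM, and Man1a, a Golgi mannosidase, from 202 ± 51.3 to 115 ± 3.94 CPM (edgeR adjusted p = 0.0226 and 0.0318; log2 differences -0.85 and -0.82, and -0.67 and -1.05 without control 2). Of 18 tested genes of nucleotide sugar supply 3 rose and 3 fell, and without control 2, 6 rose and 7 fell. Gfpt2, which starts hexosamine synthesis, read 97.3, 22.0 and 104 CPM in controls and 9.04, 10.3 and 13.3 CPM in knockouts (log2 difference -2.78 ± 0.60 SE, edgeR adjusted p = 0.0246; -3.25 without control 2).

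The 13 members under the abundance filter of the test were Galnt13, Galnt16, the second St6galnac2 identifier, St6galnac5, St8sia2, B3gnt8, Chst3, Chst10, Chst13, Fut2, Gal3st3, Extl1 and Hs3st3a1. Each averaged under 1 CPM over the 6 libraries, with the highest single value, 3.65 CPM of Chst13, in control 2. With a minimum of 10 counts all 13 could be tested, 3 had an unadjusted p under 0.05, and 1 was called after adjustment. That was Fut2, with 8, 10 and 15 counts in controls and 1, 2 and 2 in knockouts (log2 difference -2.62, edgeR adjusted p = 0.0189 with that minimum).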

How the data were processed

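The deposited table holds whole-number counts per Ensembl gene for the 6 polyadenylated RNA-seq libraries, as the authors made them. FastQC 0.11.5, STAR 2.7.6a and build GRCm38 are named in the submitters' processing notes; which program counted the reads, whether it used strand, and which libraries came from the stranded kit is not given in these sources, so reads of overlapping and antisense genes cannot be parted. Identifiers were matched to GENCODE M21; 233 had no match and held at most 0.0446% of a library.

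Counts were tested for the whole table in edgeR 4.0.16 (R 4.3.3; filterByExpr by group, TMM scaling, two-sided quasi-likelihood test, Benjamini-Hochberg over all tested genes, threshold 0.05). CPM use TMM-scaled totals of the tested genes, and CPM per kb divide by the union of exons. The test was tried on simulated data. Alternatives were RLE or library-size scaling, DESeq2 1.42.0, limma voom 3.58.1, other filters, a stricter threshold, a replicate block, a sex term and leaving out each library. Named members are the 3 called members of each role group with the largest difference at a mean of at least 1 CPM and its most abundant member; named pathway genes are the 2 called genes of each list with the largest difference at a mean of at least 5 CPM. 1 pathway gene that this rule names is not reported here. The members and lists were chosen with earlier results of these data known. Promoter sequences are from RefSeq (GRCm38.p6).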

Additional observations from a re-analysis of the deposited data

How the results depend on the processing

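Higher and lower member calls numbered 16 and 16 with all libraries. They were 16 and 17 with RLE scaling, 19 and 13 with library size only, 20 and 18 with DESeq2, 17 and 13 with limma voom, 15 and 14 with a minimum of 10 counts, 14 and 13 with no filter, 15 and 17 with 1 CPM in 3 libraries, 13 and 11 with a sex term, and 8 and 4 at an adjusted p under 0.01. Leaving out 1 library gave 9 to 29 higher and 4 to 20 lower calls; both highest counts came without control 2. Deviations from the group mean in same-numbered libraries correlated at -0.19, 0.19 and 0.32, and control 1 correlated best with knockout 3 (0.38). Controls 1 and 3 gave similar values with each knockout, and control 2 gave values of opposite sign. These values follow control 2 and cannot decide whether replicate numbers pair the libraries. The replicate block gave 12 higher and 8 lower calls. Of the 31 named members 9 lost their call under it, and St3gal2, B4galt1, Chst11, Ext1 and Ndst1 had no call to lose. With the sex term 5 named members lost their call: B3gnt3, Ext2, Galnt15, Hs6st1 and St6galnac3. Among named members 3 changed sign, each from a difference not called with 6 libraries: Chst11 (0.29) and Ext1 (0.20) without control 2, and B4galt1 (-0.0064) without control 1. Over all left-out libraries Chst11 ranged from -0.42 to 0.29, Ext1 from -0.34 to 0.20 and B4galt1 from -0.0064 to 0.36. No scaling moved the median of all genes by over 0.1 (log2; at most 0.093, with library size only). Depth limits the 13 members outside the test, which rest on few counts.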
